A study of Mus musculus with 4 samples.

Results

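The genes described here encode the cell-surface receptors for serotonin, dopamine, noradrenaline and acetylcholine, in CA1 tissue of mouse hippocampus examined by whole-genome bisulfite sequencing. They were every gene of the deposited table whose name begins with Htr, Drd, Adra, Adrb, Chrm, Chrna or Chrnb followed by a digit, which gave 45 of 26848 named genes and 701 of 849014 regions with a value in all 4 libraries. The naming rule itself uses no measured value. Each region carries a percent methylation per library, and a gene mean is the unweighted mean of the regions that carry the gene's name. The study compared 2 libraries labelled Tet2+f (called control below) with 2 labelled Tet2+f_Camk2aCre (called Cre below), all from C57B6/J mice aged 117 d, so the Tet2+f genotype is common to both groups. The design text describes the tissue as haploinsufficient for Tet2, an enzyme that oxidises 5-methylcytosine, in glutamatergic cells. The Camk2a promoter drives Cre mainly in excitatory forebrain neurons, whereas each value is an average over all cells of the dissected tissue. No group with Cre alone was analysed here, so Tet2 reduction and Cre itself cannot be told apart. Values of a gene are given in the order replicate 1, replicate 2 for each group. Nothing in the labels tells whether the replicates are different animals, so the p-values below measure the spread between libraries, which may be technical.

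Serotonin, dopamine and noradrenaline reach CA1 through axons from brainstem and midbrain nuclei, and acetylcholine arrives mainly from the medial septum. Most of their receptors are coupled to G proteins: Gs raises cyclic AMP, Gi/o lowers it, and Gq activates phospholipase C. The nicotinic acetylcholine receptors and the Htr3 serotonin receptors are instead ion channels assembled from several subunits. In mammalian genes a promoter dense in CpG dinucleotides is usually free of methylation, and the rest of the gene is usually methylated at most of its CpGs. 5-hydroxymethylcytosine, the first product of the Tet enzymes, reads as methylated after bisulfite conversion, so the levels below sum both marks. No RNA was measured, and the levels say nothing direct about expression.

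The range of the receptor promoters is shown by 6 sequences from RefSeq (GRCm38.p6), each running 5′ to 3′ from 250 bases before to 50 bases after a transcript start, with every CpG in capitals. Chrm3 and Chrm4, Gq- and Gi/o-coupled muscarinic receptors, had the lowest gene-start levels of the 45 genes. The highest levels among genes with a promoter in the table were at Chrna9, a nicotinic subunit known from cochlear hair cells, and Adra1b, a Gq-coupled noradrenaline receptor. Chrna7, the subunit of the homomeric nicotinic receptor of hippocampus, and Htr3b, an accessory subunit of the serotonin-gated channel, were added after their values were seen because they show a CpG-rich and a CpG-poor promoter of ion channel genes.
Chrm3, chr13:10360754-10361053, minus strand: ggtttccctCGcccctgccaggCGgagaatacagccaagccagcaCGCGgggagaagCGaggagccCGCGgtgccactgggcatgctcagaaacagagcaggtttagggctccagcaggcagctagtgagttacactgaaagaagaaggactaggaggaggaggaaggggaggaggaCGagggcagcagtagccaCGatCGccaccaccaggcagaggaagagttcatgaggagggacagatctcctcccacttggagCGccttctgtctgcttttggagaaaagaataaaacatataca
Chrm4, chr2:91921939-91922238, plus strand: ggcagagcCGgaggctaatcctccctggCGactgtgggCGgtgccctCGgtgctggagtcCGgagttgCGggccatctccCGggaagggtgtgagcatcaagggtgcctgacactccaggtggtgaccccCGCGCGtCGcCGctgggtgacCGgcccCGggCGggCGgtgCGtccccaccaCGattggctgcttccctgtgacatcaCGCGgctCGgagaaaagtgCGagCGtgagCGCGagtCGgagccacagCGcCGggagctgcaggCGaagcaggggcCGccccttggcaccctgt
Chrna7, chr7:63212477-63212776, minus strand: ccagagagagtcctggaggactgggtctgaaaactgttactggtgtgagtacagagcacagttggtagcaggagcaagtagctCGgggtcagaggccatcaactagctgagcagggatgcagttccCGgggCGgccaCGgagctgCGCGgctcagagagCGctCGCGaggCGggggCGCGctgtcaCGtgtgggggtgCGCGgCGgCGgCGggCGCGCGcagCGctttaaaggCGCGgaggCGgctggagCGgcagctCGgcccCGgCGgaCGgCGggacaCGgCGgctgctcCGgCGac
Adra1b, chr11:43901188-43901487, minus strand: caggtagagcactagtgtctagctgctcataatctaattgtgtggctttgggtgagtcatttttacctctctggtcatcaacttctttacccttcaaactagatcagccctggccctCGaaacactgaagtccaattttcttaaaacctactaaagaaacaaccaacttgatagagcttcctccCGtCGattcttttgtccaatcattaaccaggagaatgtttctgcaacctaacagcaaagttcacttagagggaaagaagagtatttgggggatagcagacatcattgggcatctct
Chrna9, chr5:65966874-65967173, plus strand: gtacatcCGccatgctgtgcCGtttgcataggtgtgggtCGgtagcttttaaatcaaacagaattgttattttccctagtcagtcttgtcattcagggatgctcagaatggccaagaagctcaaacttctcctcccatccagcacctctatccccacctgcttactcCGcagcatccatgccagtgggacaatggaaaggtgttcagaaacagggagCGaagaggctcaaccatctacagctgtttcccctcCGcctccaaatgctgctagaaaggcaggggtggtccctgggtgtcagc
Htr3b, chr9:48964941-48965240, minus strand: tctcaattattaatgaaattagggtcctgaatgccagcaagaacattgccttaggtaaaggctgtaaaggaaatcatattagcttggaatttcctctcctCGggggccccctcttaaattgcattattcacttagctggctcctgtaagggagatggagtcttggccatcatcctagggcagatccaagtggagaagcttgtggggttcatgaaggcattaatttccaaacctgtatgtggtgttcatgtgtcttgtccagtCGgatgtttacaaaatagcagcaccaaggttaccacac

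The Chrm4 promoter holds 30 CpGs, and the regions over it were at 0.174% and 2.30% (control) against 0.355% and 0.844% (Cre). For Chrna7, with 35 CpGs, the levels were 12.8% and 11.8% (control) against 10.2% and 11.6% (Cre). Chrm3, with 11 CpGs, was lower still, at 0.217% and 0.639% (control) against 1.38% and 0.222% (Cre). These 3 promoters were at 12.8% or less in every library. The groups overlapped at Chrm3 and Chrm4. At Chrna7, averaged over 2 regions, both Cre values were below both controls (16.8% of all single regions separated in this direction). By contrast the Htr3b promoter holds 2 CpGs and its region was at 80.3% and 83.2% (control) against 82.2% and 76.4% (Cre). Adra1b, with 3 CpGs, was at 81.4% and 80.1% (control) against 85.6% and 77.9% (Cre). Chrna9, with 6 CpGs, was at 74.8% and 79.1% (control) against 80.1% and 80.4% (Cre). These 3 were high in every library, and the groups overlapped at Htr3b and Adra1b. At Chrna9 both Cre values were above both controls (15.9% of all regions separated in this direction). Differences at single promoters were not tested. Each level is that of the whole overlapping regions, not of the 300 printed bases alone. The region is 2267 bp long at Htr3b and 2493 bp at Adra1b, whereas those at Chrm3, Chrm4 and Chrna7 are 154 to 659 bp. The RefSeq start behind the printed Chrna9 promoter lies 32270 bp inside the gene's outermost span, and the other 5 lie within 259 bp of the gene's outer end.

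Across the receptor genes CpG density and methylation were inversely related, as they were genome-wide. RefSeq held 39 promoters of 34 of the 45 genes. In 17 of them (43.6%, against 35.8% of 32851 promoters in the table) the ratio of observed to expected CpGs was 0.6 or more. Of these 17, 13 (76.5%) were methylated below 20% and none exceeded 60%. Over all promoters at or above that ratio the shares were 82.1% and 3.40%. The medians were 6.53% for the receptors and 2.08% for all. The most methylated of the 17 was that of Chrnb1 at 33.6%, a subunit of the muscle-type nicotinic receptor. Among the 22 promoters below that ratio, 6 were under 20% and 8 were over 60%. The corresponding shares over all CpG-poor promoters were 9.66% under 20% and 73.2% over 60%, and the medians were 37.2% for the receptors and 77.3% for all. The CpG-poor promoters under 20% included those of Htr1a and Htr1b, inhibitory serotonin receptors, and Chrna3, a nicotinic subunit of autonomic ganglia, at 4.63%, 1.91% and 4.96%. Over the 39 promoters Pearson's r was -0.762 and Spearman's rho -0.717, beside -0.804 and -0.744 over 32807 promoters. These are descriptions across promoters of the same 4 libraries, some of which share a gene and some a region, and no test was made.

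**Figure D1:**
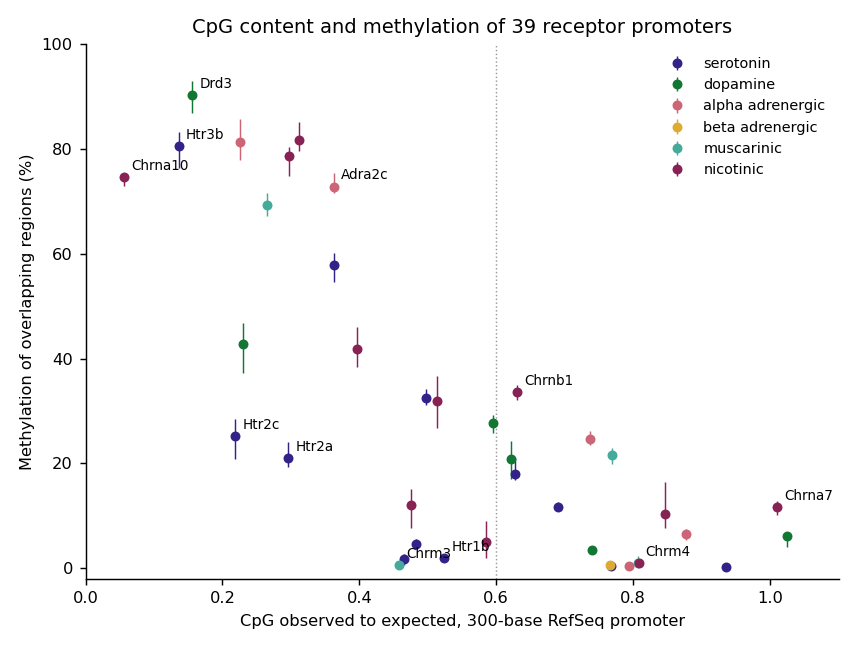
Methylation of the regions overlapping each of 39 RefSeq receptor promoters (percent; point, mean of 4 libraries; line, lowest to highest library) against the ratio of observed to expected CpGs in 300 bases. Promoters at or beyond the dotted line at 0.6 sit at 33.6% or lower, and those to its left spread from 0.615% to 90.3%.

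Several receptor genes have more than 1 RefSeq promoter, and their levels differed within a gene. At Adra1b the outermost promoter was at 81.3%, and another RefSeq promoter 64761 bp inside the gene, with a CpG ratio of 0.737, was at 24.6%. Of the 2 regions averaged over that inner promoter, chr11:43836420-43836640 read 0% in all 4 libraries. For Htr1d, an inhibitory serotonin receptor, the outer promoter was at 57.9% and the one 1090 bp inside was at 11.7%. At Chrna5, an accessory nicotinic subunit, the outer promoter was at 41.8% and the inner, whose start lies 661 bp inside the gene, at 10.3%. Chrna4 with Chrnb2 forms the main heteromeric nicotinic receptor of brain. Its RefSeq promoter lies 4402 bp inside the outermost start of the gene and was at 1.104%, whereas the region at the outermost start averaged 64.8%. A gene-start level in the following paragraphs is taken at the outermost RefSeq start and can therefore miss a promoter lying inside.

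Some facts concern all features. The 26848 gene means averaged 68.4% to 68.7% per library, with a group difference of 0.0194 percentage points, and no library stood apart by its overall level. The table holds no coverage. The depth behind each value is unknown, a region listed at 0% has no stated upper limit, and only the spread between libraries measures precision. No RNA was measured against which to check the tissue label, and start methylation did not set CA1 apart: starts of 6 CA1 pyramidal markers averaged 14.0% to 49.3%, those of 3 dentate gyrus markers 12.7% to 23.7% and those of 5 interneuron markers 13.9% to 86.4%. Single astrocyte, oligodendrocyte and endothelial markers (Slc1a3, Mbp and Cldn5) were at 32.9%, 35.6% and 40.5%, and both microglial markers measured were at 76.99% or more.

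The receptor genes covered a wide range of gene means, from 4.83% to 90.3%, with a median of 64.7% against 74.5% over all genes. G protein-coupled receptors with short genes filled the low end. In all, 7 of the 45 receptor genes (15.6%) were under 20%, against 4.15% of all genes: Adrb1, Adra2a, Adra2c, Drd4, Htr1a, Adrb3 and Htr1b. Over 60% were 26 receptor genes (57.8%), against 76.9% of all genes. The mean over the 45 genes was 57.9% ± 0.0552 in the control and 58.0% ± 0.188 in the Cre libraries (SD, n = 2 libraries each).

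By family, the beta adrenergic receptors (3 genes, all Gs-coupled noradrenaline receptors) had the lowest median gene mean, 17.9%, or 27.2% over whole RefSeq spans. Adrb1, a principal beta receptor of neurons in cortex and hippocampus (ENSMUSG00000035283, RefSeq span chr19:56722117-56725150, plus strand), was the lowest of all 45 genes, at 5.45% and 5.35% (control) against 4.48% and 4.06% (Cre). All 4 libraries lay within a narrow band there, with both Cre values below both controls (16% of all gene means separated in this direction). Adrb3, the receptor of fat tissue, averaged 17.9%. Among the 6 alpha adrenergic genes the median was 30.5%. All 3 Gi/o-coupled alpha receptors were below the 3 Gq-coupled ones, the lowest of which was Adra1d at 33.7%. Adra2a, the autoreceptor that restrains noradrenaline release, was at 8.39% and 6.92% (control) against 7.14% and 7.98% (Cre). Adra2c, another presynaptic receptor of this kind, was at 10.2% and 11.2% (control) against 9.79% and 9.68% (Cre). Adra1a, a postsynaptic Gq-coupled receptor, was much higher, at 70.1% and 70.8% (control) against 71.8% and 71.7% (Cre).

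**Figure D2:**
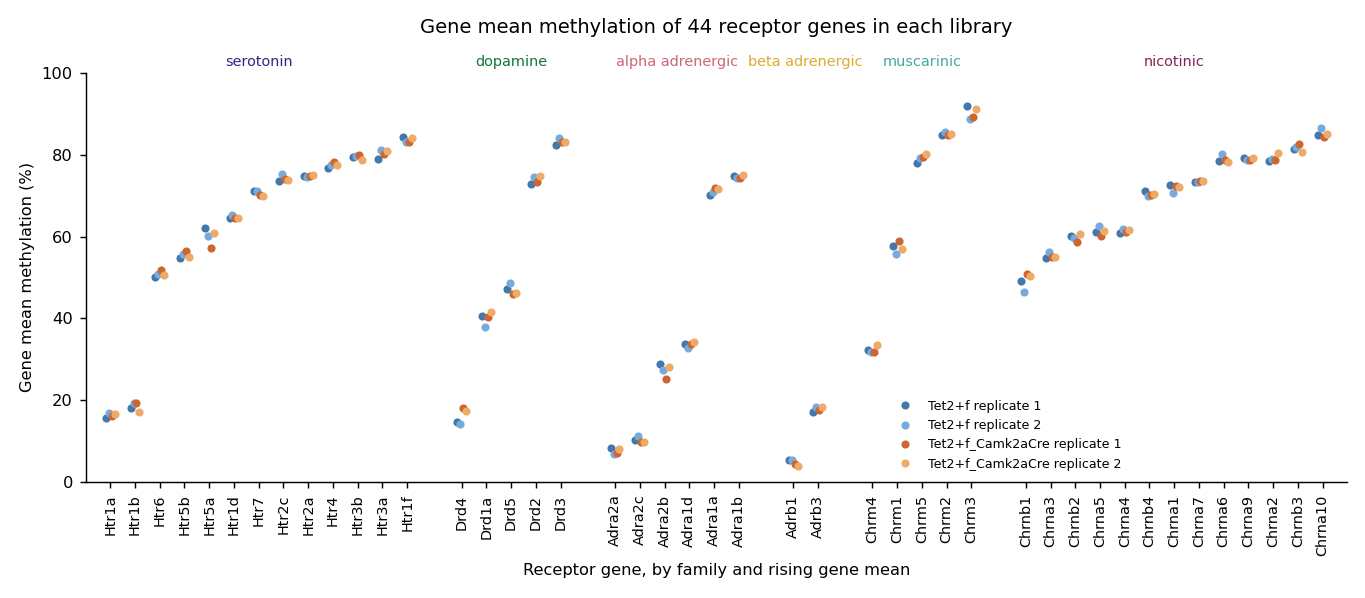
Gene mean methylation (percent, unweighted mean of the regions carrying the gene's name) of 44 receptor genes in each of 4 libraries, grouped by family and ordered by level. The points of a gene lie close together while genes run from 4.83% (Adrb1) to 90.3% (Chrm3).

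The 5 dopamine receptor genes had a median of 47.0%. Drd4, a Gi/o-coupled receptor, was the lowest, with a mean of 16.1%, and Drd3, of the same coupling and enriched in limbic striatum, the highest at 83.1%. Of the Gs-coupled pair through which dopamine acts in CA1, the gene for the D1 receptor (listed as Drd1a) was at 40.6% and 37.8% (control) against 40.2% and 41.5% (Cre). Drd5 was at 47.2% and 48.7% (control) against 45.9% and 46.2% (Cre). The serotonin receptor genes (13) had a median of 70.6% and ranged from 16.3% to 83.6%. Htr1a, the inhibitory receptor abundant on CA1 pyramidal cells, was at 15.7% and 16.9% (control) against 16.0% and 16.7% (Cre). Htr1f, of the same coupling, was at 84.2% and 83.1% (control) against 83.05% and 84.1% (Cre). The Gs-coupled Htr4 and Htr7, both excitatory in CA1, stood high: Htr4 was at 76.8% and 77.5% (control) against 78.2% and 77.5% (Cre). Htr7 was at 71.2% and 71.2% (control) against 70.2% and 69.9% (Cre). The X-linked Htr2c, a Gq-coupled receptor whose RNA is edited, was at 73.6% and 75.2% (control) against 74.0% and 73.9% (Cre). Htr3a, the obligatory subunit of the serotonin-gated channel and a mark of one interneuron class, was at 79.1% and 81.1% (control) against 80.2% and 81.0% (Cre). None of the 13 serotonin genes except Htr1a and Htr1b was under 20%.

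Muscarinic genes (5) had a median of 79.2%, which is the level of Chrm5, a Gq-coupled receptor with 3 named regions. Over whole RefSeq spans the muscarinic median was 69.4%, below the 71.9% of the nicotinic genes, whereas over named regions it was the highest of the 6 families. Chrm1, the main Gq-coupled muscarinic receptor of pyramidal cells, was at 57.6% and 55.7% (control) against 59.0% and 57.1% (Cre). Chrm2, the Gi/o-coupled autoreceptor of cholinergic terminals, was at 84.8% and 85.5% (control) against 84.9% and 85.2% (Cre). Chrm3 was the highest of all 45 genes, at 91.9% and 88.7% (control) against 89.3% and 91.2% (Cre). That value rests on 3 regions, in which the groups overlapped. Over the whole RefSeq span of Chrm3, chr13:9875486-10361062, 117 regions averaged 76.6%. Over that span both Cre values were above both controls, at 75.7% and 75.9% (control) against 77.4% and 77.3% (Cre). The span difference was 1.60 points, not past the threshold (17.1% of all gene means over named regions separated in this direction). Only Chrm4 was low in this family, at 32.3%. The nicotinic subunit genes (13) had a median of 71.9% and kept to a narrower range, 49.2% to 85.2%. Chrna10, the partner of Chrna9, was at 84.7% and 86.4% (control) against 84.4% and 85.1% (Cre). It was the highest of the family, and the subunits of the hippocampal receptors were below it. Chrna7 was at 73.4% and 73.3% (control) against 73.6% and 73.5% (Cre). Chrna4 was at 60.8% and 61.9% (control) against 61.1% and 61.6% (Cre). Chrnb2 was at 60.1% and 59.6% (control) against 58.6% and 60.7% (Cre). For these hippocampal subunits the control and Cre libraries overlapped except at Chrna7, where the group means differed by 0.187 points (33.1% of all gene means separated in this way). Grouped by coupling, the 15 ion channel genes had a median of 73.4% and none under 20%, and the 14 Gi/o-coupled genes a median of 43.9% with 5 under 20%.

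The low gene means belonged to short genes. After the values were seen, the genes were split at 6000 bp, since many of these receptors are encoded by a single exon or very few. The 12 receptor genes under 6000 bp had a median of 18.2%, and 7 of them were under 20%. Of the 33 longer receptor genes none was under 20%, and their median was 73.4%. Over all genes this split was smaller: 12.4% of 5865 genes under 6000 bp and 1.23% of 16145 longer genes were under 20%. The size of the contrast depended on how regions were weighted, since short regions count as much as long ones in an unweighted mean. Weighting each region by its length brought the median of the 12 short receptor genes to 41.7% and left 1 of them, Adrb1 at 14.8%, under 20%. With this weighting 2.22% of the 45 receptor genes and 2.23% of 22010 genes with a RefSeq position were under 20%, so the larger share of low receptor genes was seen in unweighted means alone. Adra2c then averaged 37.3% and Htr1b 46.1%. The median of the longer receptor genes with this weighting was 78.2%.

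To set the start of each gene against its body, regions touching a window from 2000 bp before to 500 bp after the RefSeq start were averaged as the gene start, and the remaining regions of the gene as the body. The receptor gene starts averaged 44.2% and 44.7% without Cre and 44.1% and 44.2% with it. Their bodies averaged 64.9%, 64.5%, 64.7% and 65.0% in the same order. Start minus body was -20.8 and -19.9 points in the controls and -20.6 and -20.8 points in the Cre libraries, so the start was lower in every library and the group values overlapped. Over 19418 genes the same difference averaged -31.3 points. The start was below the body in 33 of the 45 receptor genes (73.3%) and in 80.5% of all genes. Counting only regions within 500 bp of the start gave -27.2 points for the receptors, and weighting by region length gave -10.8.

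Families differed in their starts. The median start was lowest in the muscarinic genes, 16.2%, and highest in the nicotinic genes, 64.8%. Of the 13 nicotinic starts, 7 were over 60% and none was under 20%. These 7 were Chrna1, a muscle subunit; Chrna2 and Chrna4, neuronal subunits; Chrna6 and Chrnb3, known from midbrain dopamine neurons; and Chrna9 and Chrna10. In the Gq-coupled group 4 of 8 starts were under 20% (24.0% of all starts), those of Chrm1, Chrm3, Htr2c and Adra1d. Chrm3 had the largest gap of the 45 genes, from 13.2% and 13.4% (control) against 13.7% and 13.4% (Cre) at its start to a body of 3 regions at 90.3%. Htr2c started at 15.3% and 16.0% (control) against 11.2% and 14.6% (Cre), with a body at 77.6%. Chrm4 started at 13.5% and 14.2% (control) against 12.6% and 13.4% (Cre), with a body of 40.1%. All 3 starts were low in every library, and at Htr2c and Chrm4 both Cre values were below both controls (16.7% of all starts separated in this direction). At Chrm3 both were above both controls, with a difference of 0.261 points (17% of all starts).

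Among the hippocampal channel subunits, Chrna7 started at 23.1% and 23.6% (control) against 23.7% and 23.2% (Cre). Its body was at 80.0%. For Chrnb2 the start was at 30.4% and 30.4% (control) against 30.5% and 28.7% (Cre). The Chrnb2 body was at 82.0%, so both genes were far lower at their start. Chrna4 differed from both, since its window held 1 region of 4114 bp, at 66.8% and 68.6% (control) against 61.4% and 62.4% (Cre). Htr3a, also with 1 region in the window, was at 53.8% and 54.2% (control) against 53.2% and 49.0% (Cre). At Chrna4 and Htr3a both Cre values were below both controls (16.7% of all starts separated in this direction). The starts of the excitatory G protein-coupled receptors of CA1 were in between or low. Chrm1 was at 15.6% and 13.7% (control) against 16.8% and 18.7% (Cre). Htr4 was at 43.9% and 46.0% (control) against 46.5% and 46.7% (Cre). Htr7 was at 26.7% and 27.6% (control) against 26.3% and 26.2% (Cre). The groups did not overlap at any of the 3, with Cre higher at Chrm1 and Htr4 and lower at Htr7 (33.7% of all starts separated in either direction). The dopamine receptor Drd5 was at 30.7% and 33.4% (control) against 29.1% and 30.2% (Cre), also without overlap. Drd1a was at 31.6% and 32.0% (control) against 31.0% and 32.2% (Cre). Adra1a was at 45.2% and 43.4% (control) against 44.99% and 44.97% (Cre). Each of these 6 starts was lower than the body of the same gene, by 29.0 to 57.8 points on the mean of the 4 libraries.

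In 12 genes the start was above the body. The largest such gap was at Adrb3, whose outermost start was at 83.5% and 83.7% (control) against 86.0% and 82.1% (Cre), while its body was at 17.9%. Adra1b was at 87.4% and 86.0% (control) against 89.5% and 84.6% (Cre) at its start. Chrna9, the highest start, was at 88.9% and 89.1% (control) against 86.3% and 88.7% (Cre). All 3 starts were high in every library and the groups overlapped at Adrb3 and Adra1b. At Chrna9 both Cre values were below both controls (16.7% of all starts separated in this direction). Besides Adrb3, 5 of the 12 were short genes with a body lower still than their start (Adra2a, Adra2c, Adrb1, Drd4 and Htr1a). Adrb1 is an example, with 17.6% and 17.6% (control) against 18.5% and 19.1% (Cre) at the start and 6.70% in the body. At that start both Cre values were above both controls (17% of all starts separated in this direction). Htr1a started at 27.0% and 25.05% (control) against 27.8% and 26.3% (Cre). In both the window also took in more methylated sequence upstream, and the region that contains the start base itself was low. It was at 0% in all 4 libraries at Adrb1 and at 4.39% and 3.66% (control) against 4.95% and 5.54% (Cre) at Htr1a. Over the 44 genes with such a region, 18 (40.9%) were under 20% at the start base, against 47.8% of 21588 genes. Of the receptor genes 16 were under 5% there.

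**Figure D3:**
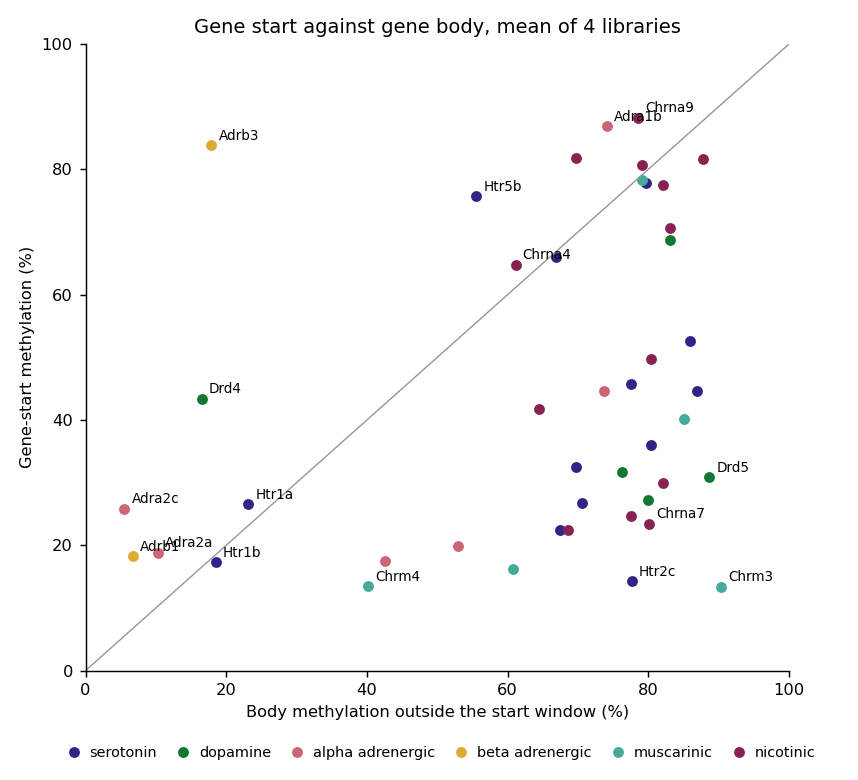
Gene-start methylation against body methylation (both percent, mean of 4 libraries) of 44 receptor genes, coloured by family. Most points lie below the diagonal of equal levels, Chrm3 farthest, and Adrb3 at 83.8% and 17.9% lies farthest above it.

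Along single genes the low segment could be narrow or could fill the gene. At Adrb1 every region from 67 to 1880 bp after the start was at 5.25% or less in each library. The region at its 3′ end was at 43.6% and 39.7% in the controls against 38.2% and 30.3% with Cre. Drd5, a gene of similar length, was different: the region at its start was at 0% and 0% in the controls against 0.5% and 0.733% with Cre, and the one from 828 to 1433 bp was at 97.5%, 96.2%, 93.3% and 96.1% in the same order. Between them, the Drd5 region from 319 to 827 bp was at 54.7% and 63.1% in the controls against 55.3% and 48.2% with Cre. So the low segment of Drd5 ended by 318 bp, and that of Adrb1 ran through most of the gene. At Chrna7 the region over the start, from 37 bp upstream, was at 6.67% and 0.571% (control) against 0% and 1% (Cre), and the low regions ended at 2438 bp. Htr3b had no region below 20% along its span, and its lowest averaged 34.6%.

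**Figure D4:**
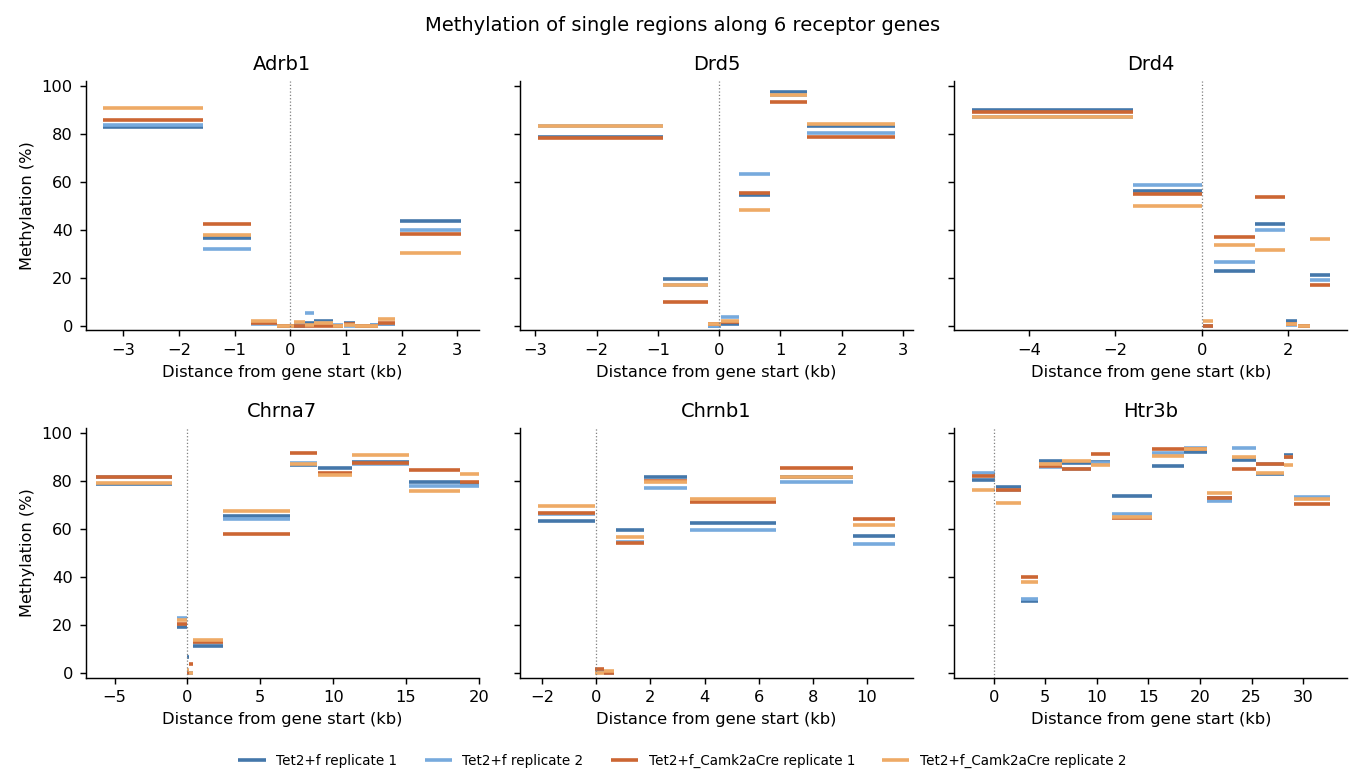
Methylation (percent) of each region against its distance from the gene start (kb) for Adrb1, Drd5, Drd4, Chrna7, Chrnb1 and Htr3b; each bar is a region in 1 library. The low segment fills Adrb1, is short in Drd5, Chrna7 and Chrnb1, and is lacking in Htr3b.

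The comparison of Cre with control asked whether methylation of these receptor genes differed where Tet2 was reduced. No receptor gene, gene start or region passed an adjusted p of 0.05 in limma's moderated test with Benjamini-Hochberg adjustment over all features. That was 0 of 45 gene means (background 0% of 26848), 0 of 45 gene starts (0% of 22000) and 0 of 701 regions (0% of 849014). At an unadjusted limma p under 0.05 there were 2 gene means (4.44%; background 5.32%), 2 gene starts (4.44%; background 5.13%) and 39 regions (5.56%; background 4.6%). The smallest adjusted p from limma was 0.822 for gene means, 0.956 for starts and 0.937 for regions.

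In the median, differences between groups were below those between replicates, although a group mean of 2 libraries varies less than a single library. The median absolute group difference over the 45 gene means was 0.509 points, and the median absolute difference between replicates was 0.995 points. For starts these medians were 1.15 and 1.68 points, and for the 701 regions 1.69 and 2.85 points. All 4 libraries separated by group in 10 gene means (22.2%; background 33.1%), 5 of them higher in Cre (background 17.1%) and 5 lower (background 16%). Among starts 22 separated (48.9%; background 33.7%), 10 higher (background 17%) and 12 lower (background 16.7%). In regions the count was 226 (32.2%; background 32.8%), 119 higher (background 15.9%) and 107 lower (background 16.8%). The Cre mean was above the control mean in 20 of 45 gene means (background 50.9%), 24 of 45 starts (background 50.8%) and 345 of 701 regions (background 49.2%).

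**Figure D5:**
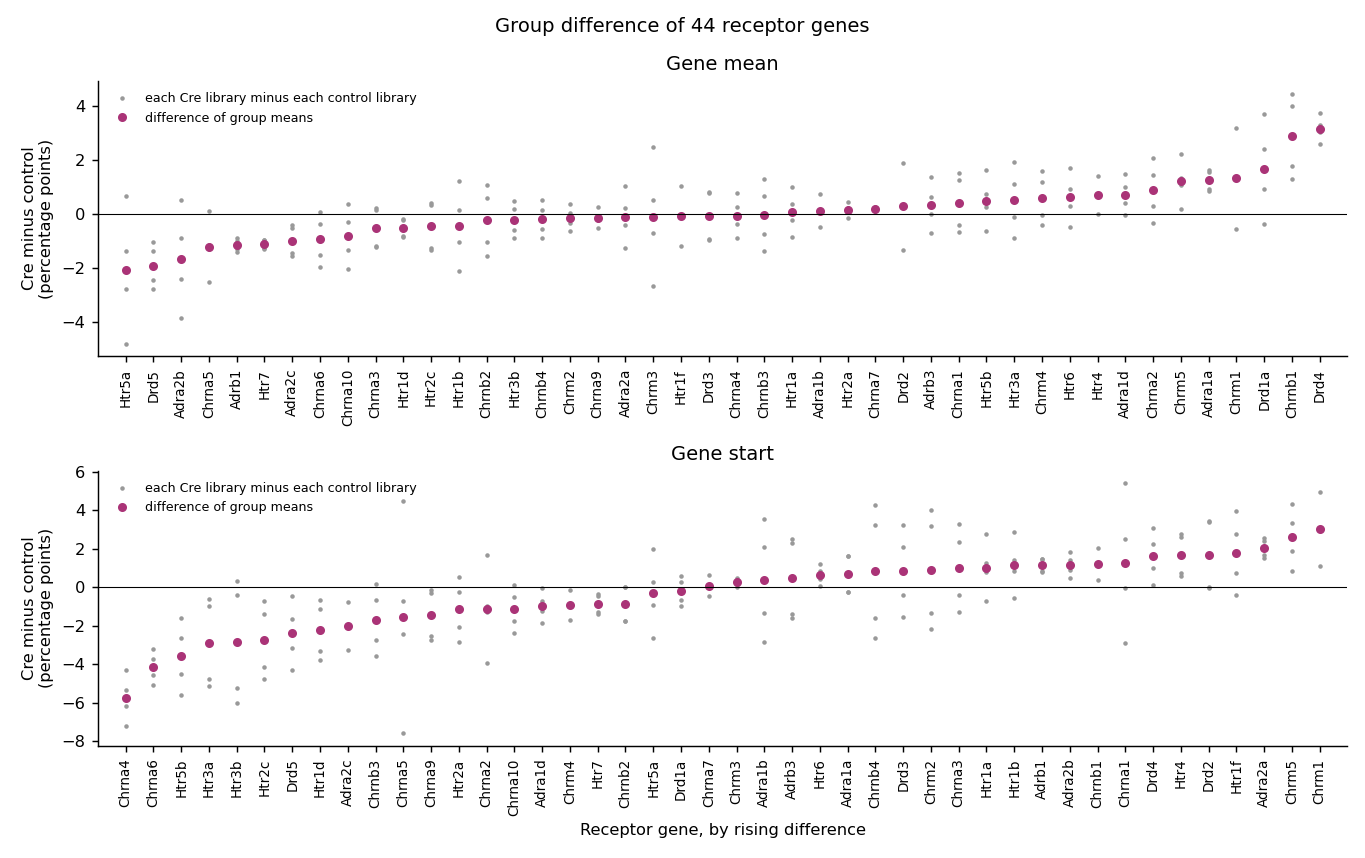
Difference in percentage points, Cre minus control, of each of 44 receptor genes for the gene mean (top) and gene start (bottom), ordered by size; large points are differences of group means and small points each Cre library minus each control library. Gene means run from -2.06 (Htr5a) to 3.17 (Drd4) and starts from -5.77 (Chrna4) to 3.06 (Chrm1), and none passed the test.

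The gene means with the largest positive differences began with Drd4, at 14.7% and 14.3% (control) against 18.02% and 17.3% (Cre). Both Cre libraries lay above both controls, 14.5% ± 0.315 against 17.7% ± 0.494 (SD, n = 2 libraries each), with a difference of 3.17 points and a limma adjusted p of 0.822. That value covers the 6 regions carrying the name: over all 8 regions of the RefSeq span Drd4 averaged 29.5% and the difference was 1.34 points, below the 2.76 points of Chrnb1 over its span. Chrnb1 was at 49.1% and 46.4% (control) against 50.8% and 50.4% (Cre). Here too the groups did not overlap, with a difference of 2.90 points and a limma adjusted p of 0.961. Without the second control library the Chrnb1 difference was 1.55 points. Drd1a and Chrm1, whose values are given above, followed with 1.67 and 1.33 points, and in both the groups overlapped. Without the second control library the Drd1a difference was 0.282 points, and without the first Cre library that of Chrm1 was 0.387. Adra1a came next, with a difference of 1.26 points, no overlap and a limma adjusted p of 0.974.

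On the negative side, Htr5a, a Gi/o-coupled serotonin receptor, was at 62.1% and 60.1% (control) against 57.3% and 60.8% (Cre). The groups overlapped, with a difference of -2.06 points that was -0.341 without the first Cre library. Drd5 differed by -1.90 points and did not overlap (limma adjusted p = 0.963), and without the second control library by -1.19 points. Over whole RefSeq spans the order changed, with -2.68 points at Drd5 and -1.71 points at Htr5a. Adra2b, the remaining alpha-2 receptor, was at 28.9% and 27.5% (control) against 25.1% and 28.1% (Cre). Its groups overlapped as well, with a difference of -1.65 points that was -0.174 without the first Cre library. Chrna5 was at 61.2% and 62.6% (control) against 60.1% and 61.4% (Cre). Its difference of -1.20 points came with overlapping groups and ranged from -1.89 to -0.507 as each library was left out. Adrb1 differed by -1.14 points without overlap, 5.40% ± 0.0653 against 4.27% ± 0.297 (SD, n = 2 libraries each), with a limma adjusted p of 0.827. The Gs-coupled Drd1a and Drd5 thus had differences of opposite sign, neither past the test, and whether they differ from each other was not tested.

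At the starts, Chrna4 had the largest difference. Both Cre values were below both controls, 67.7% ± 1.31 against 61.9% ± 0.726 (SD, n = 2 libraries each), a difference of -5.77 points with a limma adjusted p of 0.956. The promoter of Chrna4 lying inside the gene was near 0 in both groups, so this difference concerns the region at the outermost start. Chrna6 was at 72.0% and 73.3% (control) against 68.2% and 68.7% (Cre). This was a difference of -4.16 points without overlap (limma adjusted p = 0.956). Htr5b, a Gi/o-coupled serotonin receptor, was at 78.1% and 77% (control) against 72.5% and 75.4% (Cre). Its groups did not overlap either, with -3.59 points, but the first region carrying its name lay the other way, at 1.08% and 1.77% (control) against 3.73% and 3.90% (Cre). Chrm1 had the largest positive difference, 3.06 points, with both Cre libraries above both controls and a limma adjusted p of 0.956. The start of Htr2c differed by -2.76 points, again without overlap, and by -1.05 without the first Cre library and -4.47 without the other. Chrna7 differed by 0.0856 points, with overlapping groups.

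Of the 701 receptor regions, 3 in each direction had the smallest unadjusted p, and the limma adjusted p of all 6 was 0.937. Several were near 0%, where a logit scale gives weight to very small differences. Higher in Cre were chr8:27227966-27228309 in Adrb3, at 0% and 0% in the controls against 1% and 0.903% with Cre, and the region of Htr5b just given. The third, chr6:36523497-36524350 in Chrm2, was at 84.1% and 83.1% in the controls against 90.6% and 90.1% with Cre. Lower in Cre was chr5:35278972-35279135 in Adra2c, at 3.85% and 8.59% in the controls and 0% in both Cre libraries. Next was chr11:43836181-43836419, beside the inner promoter of Adra1b, at 1.74% and 1.06% against 0% in both Cre libraries. The last was chr16:64966670-64969542 in Htr1f, at 95.8% and 95.5% against 91.6% and 92.0%. The groups did not overlap in these 6 (background 32.8%), and their choice by p favours such separation.

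Differences of 10 points or more were found in 5 of the 701 regions (0.713%, against 0.875% of all regions), and these were picked out after their values were seen. Drd1a held the largest, chr13:54050271-54052931 at the 3′ end, at 61.9% and 52.0% in the controls against 70.2% and 65.7% with Cre. In Chrnb1, chr11:69789332-69792507 was at 62.3% and 59.4% against 71.0% and 72.4%. Drd4 had chr7:141292265-141293201 at 22.7% and 26.4% against 37.0% and 33.7%. In these 3 both Cre libraries were above both controls, and the regions lie in the 3 genes with the largest positive differences in gene mean, which include them. The other two were lower in Cre: chr16:65047197-65048089 in Htr1f was at 95.5% and 93.2% against 77.8% and 90.1%. In Chrna2, chr14:66144442-66147220 was at 75.9% and 70.8% against 62.4% and 64.1%.

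Genes outside the receptor set that make, carry or break down the same transmitters, or relay the signals, also had no call at an adjusted limma p of 0.05. For synthesis, transport and breakdown, 18 of 19 listed genes were measured, 6 with a higher and 12 with a lower gene mean in Cre, from -3.04 points at Slc5a7, the choline transporter, to 4.55 at Pnmt, which makes adrenaline. Their starts were higher in 10 and lower in 8. Slc5a7 started at 30.6% and 28.0% in the controls against 22.2% and 23.5% with Cre. Th, tyrosine hydroxylase, started at 60.4% and 69.0% in the controls against 73.7% and 73.5% with Cre. These were the most negative and most positive start differences of the list, -6.43 and 8.89 points, and are named for that reason. At both starts the groups did not overlap (33.7% of all starts separated in either direction). Of 13 genes for G proteins, adenylyl cyclases and phospholipase C, 8 gene means were higher and 5 lower, and 7 starts higher and 6 lower. The start of Adcy1, a calcium-stimulated adenylyl cyclase, was at 21.7% and 21.6% against 14.0% and 17.0%, the most negative difference of these 13. The 3 muscle nicotinic subunits outside the naming rule had 2 higher and 1 lower in both measures. All 4 histamine receptors had lower gene means, by at most 0.631 points, and 2 of their 4 starts were higher. Over all genes 50.9% of gene means and 50.8% of starts were higher in Cre.

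Marker genes of the cell types of hippocampus showed no call either. Gene means were higher in Cre in 6 of 6 CA1 pyramidal markers, by 0.422 to 2.27 points, and in 3 of 3 dentate gyrus markers, by 0.356 to 1.45 points. They were higher in 3 of 5 interneuron, 1 of 3 astrocyte, 1 of 3 oligodendrocyte, 0 of 2 microglial and 1 of 2 endothelial markers. Starts were higher in 4 of 6 CA1 pyramidal markers, 1 of 3 dentate, 1 of 5 interneuron, 2 of 3 astrocyte, 2 of 3 oligodendrocyte, 1 of 2 microglial and 0 of 2 endothelial markers. The background was 50.9% of all gene means and 50.8% of all starts higher in Cre. The largest marker difference was at the start of Camk2a, the gene whose promoter drives Cre, with 37.7 points and a limma adjusted p of 0.232. That start was at 30.5% and 30.4% (control) against 69.7% and 66.6% (Cre), without overlap (17% of all starts separated in this direction). Camk2a is 1 of the 6 CA1 pyramidal markers counted above. What part cell composition has in the receptor values was not tested.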

How the data were processed

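DNA of CA1 tissue was bisulfite converted and sequenced in 4 libraries. The authors deposited percent methylation for 849172 regions with a gene name where one was assigned; per the submitters' processing notes, FastQC 0.11.5, Trim Galore 0.4.5, Bismark 0.19.0, edgeR and mm10 were used, whereas the way regions were drawn is not given in the sources used here. Because the deposited percent values carry no read counts or coverage, limma replaced a count model and no coverage minimum could be set.

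From these, 849014 regions with 4 values were used (158 incomplete). Gene names were matched to RefSeq GRCm38.p6 positions for 22010 genes. Means per gene, gene start (2000 bp upstream to 500 bp downstream) and body were taken. limma 3.58.1 (R 4.3.3) was fitted to log2((p + 0.01)/(1 - p + 0.01)), where p is the percent divided by 100, on all 26848 genes, 22000 starts or 849014 regions, with group as the only term and adjusted p under 0.05 as threshold. Summaries used Python 3.11.15, pandas 2.3.3 and numpy 2.4.6, figures matplotlib 3.10.9, and the fit was tested on simulated data.

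Named in full were the 5 largest positive and 5 largest negative differences in gene mean, the 3 highest and 3 lowest genes and starts, receptors best known in CA1, the 3 regions with the smallest p in each direction, and promoters of the 2 lowest and 2 highest starts. Of the 45 receptor genes, 1 enters the counts and means but its own values are not reported here. The receptor set, though drawn by gene name, and the pathway and marker lists were chosen with earlier results of these data known. Alternatives changed the scale, offset, centring, weighting, window, gene assignment, threshold, replicate block and libraries.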

Additional observations from a re-analysis of the deposited data

How the results depend on the processing

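No receptor gene, start or region was called under any setting run. With the replicate number as a block the counts stayed at 0, 0 and 0; as a check of pairing, the difference between replicates 1 and 2 in the control correlated with that in Cre at r = 0.0426 (genes), 0.0342 (starts) and 0.00648 (regions), and the libraries were treated as unpaired. Adjusted limma p-values of named genes and regions ran from 0.689 to 1 over 588 values, and 38 differences turned in sign, 35 of them by leaving out a library. The other 3 were the Adra2a gene mean weighted by region length, 0.379 points, and the starts of Adrb1 and Adrb3 within 500 bp, -0.571 and -0.0583. The settings chosen after seeing the data are not among the 588 values. Over whole RefSeq spans, a setting of that kind, the gene means of Chrm3 and Chrnb2 also turned in sign, to 1.60 and 0.233 points. Leaving out each library moved the Cre minus control difference of the mean over receptor genes between -0.0811 and 0.184 points. The Cre minus control difference of start minus body moved between -0.865 and 0.0621 points. Of 60 named Cre minus control differences 22 turned in sign when a library was left out. The ranges of these differences follow in points, first for gene means and then for starts. Gene means ranged over Adra1b -0.184 to 0.458, Adra2a -0.828 to 0.639, Adrb3 -0.340 to 1.02, Chrm2 -0.478 to 0.221, Chrm3 -1.68 to 1.503, Chrm4 -0.219 to 1.40, Chrna10 -1.67 to 0.0568, Chrna4 -0.610 to 0.519, Chrna9 -0.358 to 0.121, Chrnb2 -1.29 to 0.853, Htr1a -0.524 to 0.689, Htr2c -1.28 to 0.383 and Htr3a -0.480 to 1.52. Starts ranged over Adra1a -0.244 to 1.62, Adra1b -2.10 to 2.83, Adrb3 -1.497 to 2.42, Chrm2 -1.77 to 3.60, Chrna5 -5.01 to 1.90, Chrna7 -0.194 to 0.365, Chrnb2 -1.74 to 0.0174, Drd1a -0.809 to 0.414 and Htr5a -1.79 to 1.15. Regions over the RefSeq span, the region at the start base, the gene's first region and a window of named regions alone were settings chosen after seeing the data. A coverage minimum was not run, since the table gives no coverage. With 2 libraries a group and unknown depth, no smallest detectable difference can be given.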
